A study of Arabidopsis thaliana with 12 samples.

Results

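NTRC, FTRB, PRXIIE and CHLM are nuclear genes for plastid proteins that carry reducing power, remove peroxides or make chlorophyll. They were chosen by name, as the genes whose probe was annotated to AT2G41680, AT2G04700, AT3G52960 or AT4G25080 and to no other gene. That gave 4 genes with 1 probe each, of 651 measured features with a single gene name and 3278 features in all. No probe annotated to several genes held any of these loci.

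The arrays held total RNA of wild-type Arabidopsis thaliana plants of ecotype C24. One group of 6 arrays came from plants grown in light specific for photosystem II, and the other group of 6 from plants in the same light that also received DCMU (diuron), an inhibitor that stops electron flow from photosystem II into the plastoquinone pool. The sources used here do not give tissue, age, dose or length of treatment, and in a bulk sample fewer cells of a type and less RNA per cell cannot be told apart. The comparison asks which transcripts differ when electron transport is inhibited in that light.

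Chloroplasts pass electrons to regulatory and protective enzymes by parallel routes. Ferredoxin-thioredoxin reductase, whose catalytic subunit is FTRB, takes electrons from ferredoxin reduced in the light and hands them to thioredoxins, which switch on enzymes such as those of the Calvin cycle. NTRC joins a thioredoxin reductase and a thioredoxin domain in 1 protein, draws on NADPH, and is best known for reducing the plastid 2-Cys peroxiredoxins. PRXIIE is a type II peroxiredoxin of the plastid that reduces peroxides. CHLM, the magnesium-protoporphyrin IX methyltransferase, carries out a step of chlorophyll synthesis, and the activity of its protein is under redox control by NTRC. These routes act on proteins, whereas the arrays measured transcripts alone.

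Intensities are in the authors' scaled units, in which array totals ran from 3643 to 3768 and the median spot from 0.596 to 0.687. None of the 48 values of the 4 genes stood at the ceiling of 100 or at the floor of 0.0669 used here. That floor is the 1st percentile of positive values, so lying above it does not show signal over background. FTRB, at 0.592 to 0.744, lay near the median spot. Within each group, the arrays numbered 1 and 2, 3 and 4, and 5 and 6 deviated together, so the log2 values of each such number pair were averaged into 1 replicate, giving 3 replicates per group. The labels do not say what a number stands for, so the spread behind the p-values may be technical. All tests across features are moderated tests from limma, adjusted by Benjamini-Hochberg over the 3278 features.

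None of the 4 genes passed the test for DCMU. The fit called 167 features, 5.09% of those tested, so 0 calls among 4 genes does not set them apart. No member had an unadjusted p under 0.05 either, as 24.5% of all features did. The log2 changes of the 4 genes (DCMU minus untreated) ran from -0.06 to 0.14 with a median of 0.10, and the median of all 3278 features was also 0.10. In all 4 genes the 3 treated replicates overlapped the 3 untreated ones, while 30.6% of all features had groups that did not overlap. The plot of intensity by sample number shows the 48 values.

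**Figure D1:**
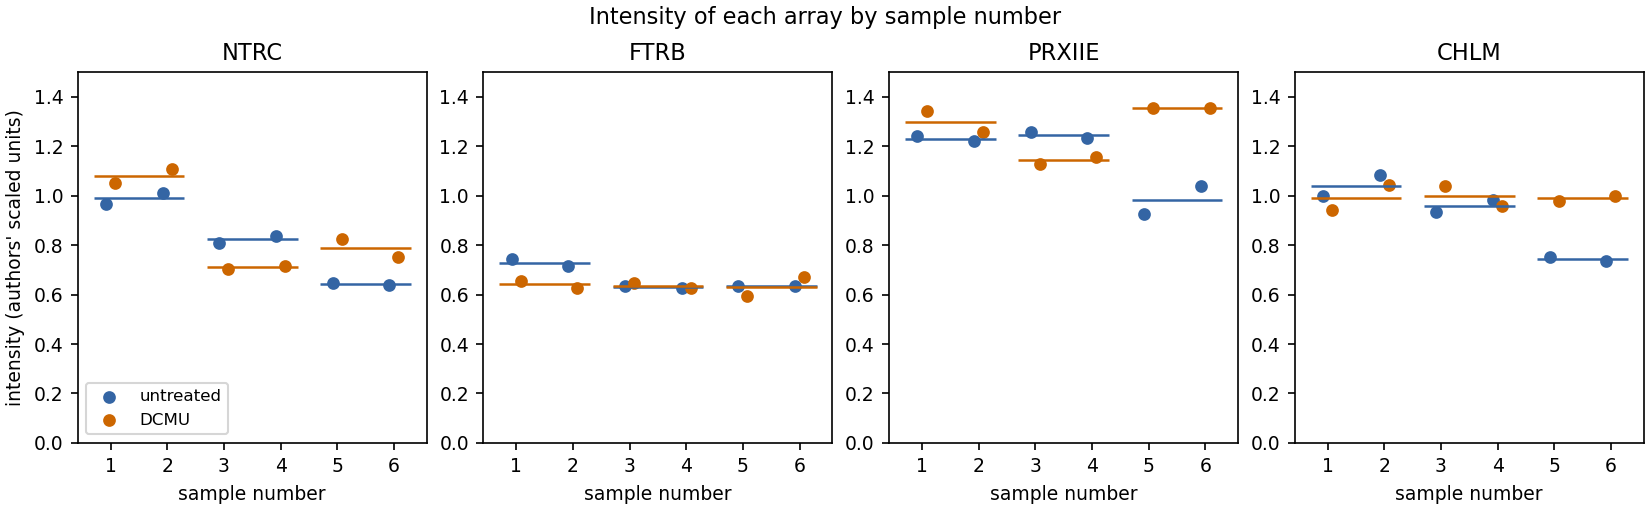
Intensity of NTRC, FTRB, PRXIIE and CHLM (y axis, authors' scaled units) on each of the 12 arrays, by sample number (x axis), for untreated and DCMU-treated plants. Points are arrays and each line is the mean of a number pair on the log2 scale; NTRC is higher at numbers 1 and 2 in both groups, and the untreated arrays 5 and 6 lie below the treated ones for NTRC, PRXIIE and CHLM.

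The mean level of NTRC varied over the number pairs. A range over 3 pair means tends to exceed a difference of 2 group means by its construction, so the sizes of these are not comparable. In untreated plants NTRC was at 0.968 and 1.01 in numbers 1 and 2, at 0.809 and 0.837 in numbers 3 and 4, and at 0.647 and 0.638 in numbers 5 and 6. In DCMU-treated plants it was at 1.05 and 1.11, then 0.705 and 0.716, then 0.825 and 0.751. The highest pair was the same in both groups, and the groups overlapped over most of their range. The mean level was 0.819 ± 0.173 in untreated and 0.859 ± 0.195 in treated plants (SD, n = 3 replicates). That is a log2 change of 0.07 with a 95% interval from -0.35 to 0.48 (limma, adjusted p = 0.835), and with median centring of the arrays the estimate turned to -0.00663.

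The order of the number pairs was not the same at its lower end. Within pairs, NTRC was 1.09-fold higher with DCMU in numbers 1-2, 1.16-fold lower in numbers 3-4 and 1.22-fold higher in numbers 5-6. Averaged over both groups it was at 1.03 in numbers 1-2, 0.765 in numbers 3-4 and 0.711 in numbers 5-6, a 1.45-fold range. On the log2 scale this range was 0.54, against a median range of 0.20 over all features, and 95.1% of features had a range no larger. A limma F-test of the number-pair terms, added after the values were seen, gave an unadjusted p of 0.00356 and adjusted p = 0.0707 for NTRC. NTRC therefore did not pass, in a test that called 138 features, or 4.21%. The same test gave adjusted p = 0.779 for FTRB, 0.820 for PRXIIE and 0.489 for CHLM.

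**Figure D2:**
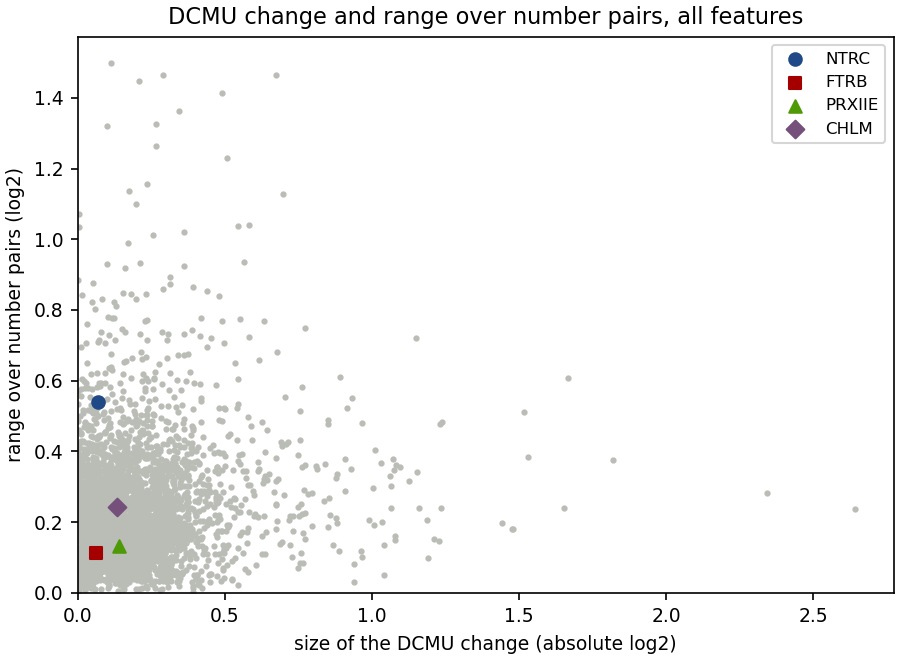
Each grey point is 1 of 3278 features, placed by the size of its DCMU change (x axis, absolute log2) and by the range of its mean level over the 3 number pairs (y axis, log2); the 4 genes are marked. NTRC combines a change of 0.07 with a range of 0.54, while FTRB and PRXIIE have ranges of 0.11 and 0.13.

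FTRB, the ferredoxin-dependent counterpart, was the steadiest of the 4. In untreated plants FTRB was at 0.744 and 0.714 in numbers 1 and 2 and between 0.629 and 0.637 in the other 4 arrays. In treated plants all 6 arrays lay between 0.592 and 0.671. Only the untreated numbers 1 and 2 stood above the rest. The mean was 0.666 ± 0.0551 in untreated and 0.636 ± 0.00545 in treated plants (SD, n = 3), or a log2 difference of -0.06 with a 95% interval from -0.30 to 0.17 (limma, adjusted p = 0.731). The change within numbers 1-2 was -0.19, and within the other pairs it was 0.00765 and -0.0103. Without the untreated numbers 1-2 the estimate was 0.00481. The residual SD of FTRB in the fit was 0.0831 on the log2 scale, against a median of 0.144 over all features, and that of NTRC was 0.314.

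The peroxiredoxin PRXIIE had the largest estimate of the 4, and it rested on 1 number pair. Untreated plants had PRXIIE at 1.24, 1.22, 1.26 and 1.23 in numbers 1 to 4, and at 0.928 and 1.04 in numbers 5 and 6. Treated plants had it at 1.34, 1.26, 1.13 and 1.16 in numbers 1 to 4, and at 1.36 and 1.35 in numbers 5 and 6. The untreated numbers 5 and 6 were the lowest of all 12 arrays and their treated counterparts were the highest 2. The mean was 1.15 ± 0.147 in untreated and 1.27 ± 0.109 in treated plants (SD, n = 3), or a log2 difference of 0.14 with a 95% interval from -0.14 to 0.42 (limma, adjusted p = 0.498). Within number pairs the log2 change was 0.08, -0.12 and 0.46 in turn. Without the untreated numbers 5-6 the change over all was 0.03.

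CHLM, the chlorophyll synthesis enzyme, was like PRXIIE in its low untreated numbers 5 and 6, while its changes in the other pairs had the opposite signs. In untreated plants CHLM was at 1.001 and 1.08 in numbers 1 and 2, at 0.934 and 0.981 in numbers 3 and 4, and at 0.751 and 0.736 in numbers 5 and 6. In treated plants all 6 arrays lay between 0.943 and 1.04. The untreated numbers 5 and 6 were the only arrays below that range apart from untreated number 3. The mean was 0.914 ± 0.153 in untreated and 0.994 ± 0.00458 in treated plants (SD, n = 3), or a log2 difference of 0.13 with a 95% interval from -0.16 to 0.43 (limma, adjusted p = 0.530). Within number pairs the log2 change was -0.07, 0.06 and 0.41. Without the untreated numbers 5-6 the estimate was -0.00703.

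None of the 4 genes had the same sign of change in all 3 number pairs, whereas 56.7% of all features did. Numbers 5-6 gave the largest rise of NTRC, PRXIIE and CHLM, at 0.29, 0.46 and 0.41 on the log2 scale. The median of all features in that pair was 0.13, against 0.10 in numbers 1-2 and 0.03 in numbers 3-4. Relative to that median, PRXIIE was 0.33 higher in numbers 5-6, with 86.2% of features at or below its change, and CHLM was 0.28 higher, with 82.4% at or below. FTRB was 0.14 lower than the median there. The part of the shared shift of numbers 5-6 in these values was not tested. The plot of change within each number pair sets the 4 genes against all features.

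**Figure D3:**
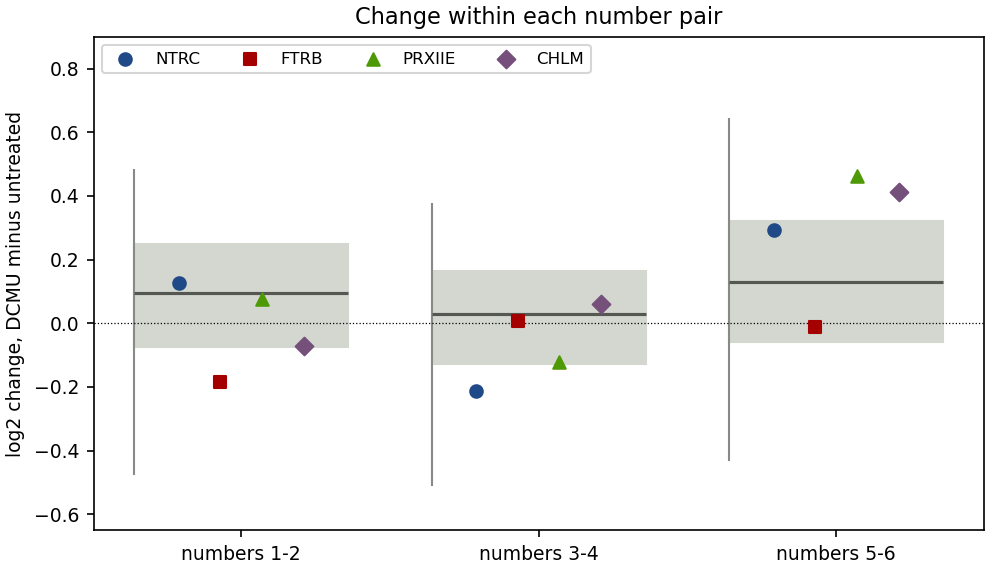
Log2 change, DCMU minus untreated (y axis), of the 4 genes within each number pair (x axis). The grey box spans the interquartile range of 3278 features with their median as a line, and the thin vertical line on its left runs from the 5th to the 95th percentile; the points of PRXIIE (0.46) and CHLM (0.41) lie above the box in numbers 5-6.

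The intervals set bounds on the change with DCMU as far as the moderated error of the fit holds. Moderation pulls the spread of each gene's replicates towards that of all features. Without a block the residual SD of NTRC was 0.314, against a median of 0.144. Its interval was therefore narrower than its own replicates alone would give. The spread of the number pairs may also be technical, so the intervals need not hold for other plants. In the fit without a block, the 95% interval of the fold change ran from 0.787 to 1.40 for NTRC, from 0.815 to 1.12 for FTRB, from 0.906 to 1.34 for PRXIIE and from 0.896 to 1.35 for CHLM. With the number pair as a replicate block, the bounds narrowed to 0.888 to 1.24 for NTRC and 0.826 to 1.11 for FTRB. They were then 0.926 to 1.31 for PRXIIE and 0.930 to 1.30 for CHLM. The residual SD of PRXIIE was 0.16 without and 0.21 with the block, and that of CHLM was 0.18 in both fits. With the block it fell to 0.18 for NTRC, and the median over all features fell from 0.14 to 0.11. The narrower bounds of PRXIIE and CHLM therefore do not show a smaller spread of their own replicates. The block called 566 features, 17.3% of those tested, and again none of the 4 (limma, lowest adjusted p = 0.389, CHLM).

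How large a change had to be to pass depended on the moderated error of each gene and on the other features' calls. With both as they were, NTRC would have needed a 1.67-fold change without the block and a 1.27-fold change with it. FTRB would have needed 1.33-fold and 1.24-fold, PRXIIE 1.42-fold and 1.28-fold, and CHLM 1.44-fold and 1.27-fold. Smaller estimates would not have passed, and the power to detect a true difference of a given size was not computed. Over all 20 limma settings the most extreme 95% bounds were a 1.45-fold fall and a 1.59-fold rise for NTRC and a 1.28-fold fall and a 1.21-fold rise for FTRB. For PRXIIE they were a 1.19-fold fall and a 1.44-fold rise, and for CHLM a 1.196-fold fall and a 1.47-fold rise. An exact permutation test of 3 against 3 replicates, two-sided, gave p = 0.8 for NTRC, 0.7 for FTRB, 0.4 for PRXIIE and 0.7 for CHLM, where the smallest possible p is 0.1.

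**Figure D4:**
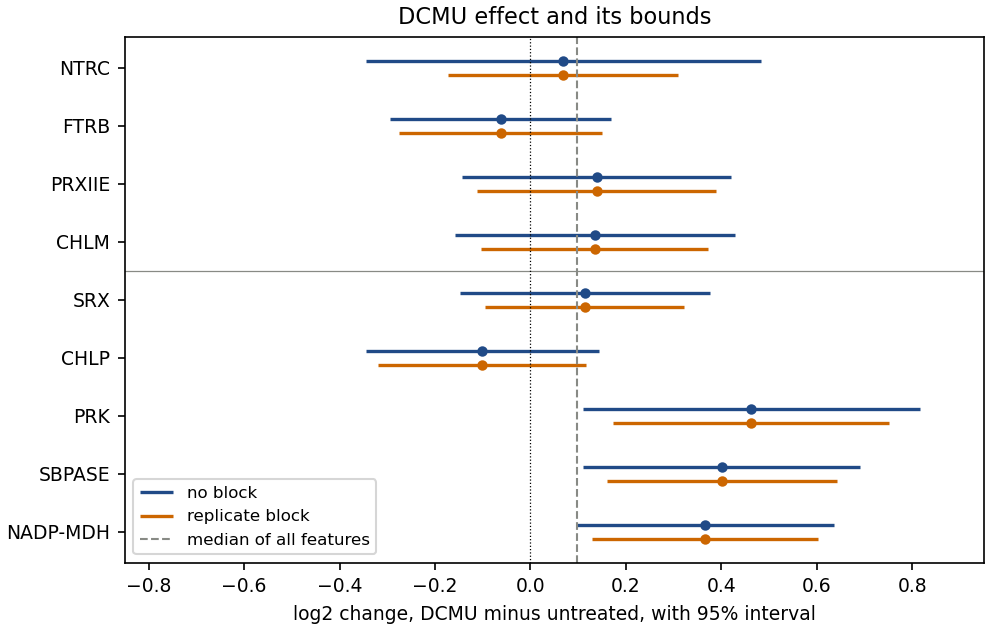
Log2 change, DCMU minus untreated, with its 95% interval (x axis) for the 4 genes above the line and the 5 other measured genes of the 4 lists below it, without a block and with the replicate block; the dashed line is the median of all features, 0.10. The intervals of the 4 genes include 0 in both fits, and those of PRK, SBPASE and NADP-MDH lie above 0.

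The lists for these pathways do not hold every gene of them, and few of their loci had a probe of their own. Of 93 loci in 4 lists, 9 were measured by such a probe, the 4 genes included, and 0 of 9 passed without the block in either direction (all 9 are given here by name, and 3 had an unadjusted p under 0.05, as did 24.5% of all features). The plastid thioredoxin system had 2 of 25 loci measured, NTRC and FTRB. Peroxiredoxins and other plastid antioxidant enzymes had 2 of 26, with SRX beside PRXIIE. SRX, sulfiredoxin, which repairs over-oxidized 2-Cys peroxiredoxins, averaged 0.746 ± 0.0739 in untreated and 0.807 ± 0.0727 in treated plants (SD, n = 3). Its log2 change was 0.11 (95% interval -0.15 to 0.38; limma, adjusted p = 0.550), and the change was positive in all 3 number pairs, from 0.09 to 0.15. Of all features, 56.7% had the same sign in all 3 pairs, and the median changes in the pairs were 0.10, 0.03 and 0.13.

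Of the 32 loci in the tetrapyrrole synthesis list, 2 were measured, CHLM and CHLP. CHLP, the geranylgeranyl reductase that makes the phytyl tail of chlorophyll, averaged 1.97 ± 0.116 in untreated and 1.84 ± 0.159 in treated plants (SD, n = 3). Its log2 change was -0.10 (95% interval -0.35 to 0.14; limma, adjusted p = 0.570). The estimates of CHLM and CHLP had opposite signs, and both intervals include 0. HEMA3 (AT2G31250), a glutamyl-tRNA reductase gene of the same pathway, is not on the list and was added after its values were seen. It averaged 1.38 ± 0.254 in untreated and 1.19 ± 0.178 in treated plants (SD, n = 3). Its log2 change was -0.20 (95% interval -0.55 to 0.14; limma, adjusted p = 0.424), with -0.25, -0.15 and -0.20 in the number pairs. A further 9 probes annotated to several genes held a locus of these lists, with log2 changes from -0.24 to 0.67. Without the block 1 of these 9 passed, higher with DCMU, where 5.09% of all features passed in either direction.

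The measured enzymes that thioredoxins activate had log2 changes from 0.37 to 0.46, and their call depended on the block, the scaling and other settings. Of 10 loci, 3 were measured: PRK, phosphoribulokinase of the Calvin cycle, SBPASE, sedoheptulose bisphosphatase of the same cycle, and NADP-MDH, the plastid malate dehydrogenase that exports reducing power. NADP-MDH was at 1.26, 1.45 and 1.85 in untreated plants and at 1.82, 1.97 and 2.03 in treated plants (lowest, median and highest of 6 arrays each), so the groups met only between 1.82 and 1.85. Its mean was 1.52 ± 0.220 in untreated and 1.94 ± 0.0697 in treated plants (SD, n = 3), or a log2 difference of 0.37 (95% interval 0.09 to 0.64). Its change was positive in all 3 number pairs, at 0.49, 0.09 and 0.52, where 56.7% of all features kept the same sign.

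PRK had a log2 change of 0.46 and SBPASE one of 0.40, also positive in all 3 number pairs. The same sign in all 3 pairs was seen in 56.7% of all features. Without the block none of these 3 enzymes passed (limma, adjusted p = 0.121 for PRK, 0.111 for SBPASE and 0.115 for NADP-MDH). With the replicate block all 3 rose (limma, adjusted p = 0.0326, 0.0279 and 0.0378), where 17.3% of all features passed. With the block after median centring none of them passed (adjusted p = 0.115, 0.0607 and 0.0707), and after quantile normalization NADP-MDH passed (limma, adjusted p = 0.0379). With 12 arrays and a random block SBPASE passed (limma, adjusted p = 0.0305), and PRK and NADP-MDH did not (adjusted p = 0.0572 and 0.0680). With neither block nor rescaling, NADP-MDH passed with array weights (limma, adjusted p = 0.0325) and without the untreated numbers 3-4 (limma, adjusted p = 0.0285). PRK and SBPASE did not pass in either of these settings. Whether these 3 enzymes differed in response from NTRC, FTRB, PRXIIE and CHLM was not tested. PRK and SBPASE were known from earlier results of these data when the list was written.

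The 4 genes did not share 1 profile over the arrays. Pearson's r over the 12 arrays, on the log2 scale, was 0.72 between PRXIIE and CHLM, 0.65 between NTRC and CHLM and 0.65 between NTRC and PRXIIE. FTRB had r = 0.37 with NTRC, 0.30 with CHLM and 0.09 with PRXIIE. Arrays of a number pair are not independent, and all features on an array share its RNA and scaling, so these values only describe the profiles. None of the 4 was among another member's 3 nearest neighbours: among 650 named features ordered by r with PRXIIE, CHLM came 45th, and PRXIIE came 40th for CHLM.

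The 3 named features most like NTRC were AT4G24910 (r = 0.94), AT2G39360 (r = 0.93) and AT2G20920 (r = 0.91). For FTRB they were AT1G79220 (r = 0.84), AT2G37880 (r = 0.80) and AT3G16310 (r = 0.76). PRXIIE was most like GH9B12, annotated as a family 9 glycosyl hydrolase (AT2G44570, r = 0.95), then AT5G19050 (r = 0.88) and AT4G17070 (r = 0.86). CHLM was most like AT1G62010 (r = 0.89), AT2G17670 (r = 0.88) and AT4G26770 (r = 0.87). None of these 12 neighbours passed the test for DCMU (limma, lowest adjusted p = 0.192, AT4G17070), where 5.09% of all features did. They were chosen for likeness to genes without a call on the same arrays, so their lack of calls is no separate result. None of them belongs to the 4 lists.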

How the data were processed

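The members and gene lists were chosen with earlier results of these data known. The deposited table gives 1 spot intensity per probe and array on a linear scale for 3439 probes, which the authors had scaled as far as the values show (totals within a factor of 1.03); the sources used here give no labelling, background correction or scaling method. The platform annotation put 692 probes on 1 gene, 870 on several and 1877 on none, and 690 of the 692 were found in the RefSeq TAIR10.1 gene table. FTRB and PRXIIE carry only their locus there and take their symbol from the fixed list. Names were not checked by sequence.

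Values were floored at 0.0669 (1st percentile of positive values), log2 transformed and kept as scaled; 160 probes never above the floor were left out and spots of 1 gene averaged. Number pairs were averaged: around their group mean, arrays correlated at 0.36 to 0.67 within them and at -0.58 to -0.11 between other numbers. Centring on the group mean by itself lowers such correlations below 0, so only the positive values within pairs bear on the averaging. The comparison used limma 3.58.1 under R 4.3.3 (two-sided, threshold 0.05, all 3278 features), after a check on simulated data. Same-numbered replicates of the 2 groups correlated at 0.38, 0.44 and 0.41, so the numbers were taken as paired and a fit with the replicate block was run beside the main one. The named genes were the 4 members, every list gene with its own probe, and the 3 named features closest to each member by Pearson's r over 12 arrays. HEMA3 was named beside them after its values were seen. Alternatives changed the scaling, the floor, the filter, the averaging, the variance model, the block and the replicates used. The number of arrays limits the precision.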

Additional observations from a re-analysis of the deposited data

How the results depend on the processing

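None of the 4 genes passed in any of the 20 limma settings. The exact permutation test could not pass, since its smallest p is 0.1. PRXIIE kept its sign in all 20 settings, while estimates of the other 3 genes turned in some. No setting left out a number pair in both groups at once. The changes of PRXIIE within pairs were 0.08, -0.12 and 0.46, so its kept sign does not show a rise beyond numbers 5-6. NTRC was at -0.00663 after median centring, with and without the replicate block, and at -0.00552 with array weights. Leaving out 1 replicate gave -0.11 to 0.22 for NTRC, -0.0977 to 0.00481 for FTRB, 0.03 to 0.21 for PRXIIE and -0.00703 to 0.24 for CHLM. The count of 167 called features was 566 with the replicate block (502 if arrays were median-centred first, 465 if quantile-normalized), 302 with 12 arrays and a random block, 1089 with 12 arrays as replicates, 359 with array weights and 102 without the filter. Leaving out 1 replicate gave 77 to 282: 82, 282 and 87 without untreated numbers 1-2, 3-4 and 5-6, and 77 and 90 without DCMU numbers 1-2 and 5-6. The share of rises among calls was 351 of 566 with the block and 175 of 502 with it after median centring. The block changed the calls of PRK, SBPASE and NADP-MDH and of no other gene named from the lists. The setting of 12 arrays as replicates took arrays of a number pair as independent although they deviated together. Its p-values are therefore too small to be taken at face value. There limma's adjusted p was 0.00907 for PRK, 0.00408 for SBPASE and 0.00514 for NADP-MDH. Over all settings the adjusted p of these genes reached 0.246, 0.294 and 0.301. The cause was not tested. Without background values, signal over background is unknown.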

Other observations

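CHLM and FTRB had treated replicates that lay closer together than the arrays they average, a contrast picked out after the values were seen and not tested. The 3 treated replicates of CHLM lay between 0.990 and 0.999, an SD of 0.00664 on the log2 scale, while arrays of 1 number pair differed by a median of 0.09 for this gene. Its untreated replicates had an SD of 0.25. For FTRB the SD was 0.0124 in treated and 0.12 in untreated replicates, with a median difference of 0.05 between arrays of a number pair. NTRC had an SD of 0.31 in both groups. Over all features the median SD was 0.13 in treated and 0.14 in untreated replicates.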
